A study of Mus musculus with 5 samples.

Results

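The genes described here are 10 transcription factors of endoderm, the pharyngeal region and the SOX family: Sox2, Sox4, Sox9, Sox11, Sox17, Foxa1, Foxa2, Gata6, Isl1 and Tbx1. They were taken by symbol from the NCBI gene numbers of the deposited RNA-seq files, and all 10 were among the 17923 genes listed in at least 1 library. The RNA was taken from cultured thyroid cancer cells of mice, all of them carrying the BrafV600E oncogene, so the controls carry it too. In 2 libraries Ctnnb1, which encodes β-catenin, was present (BVE-Ctnnb1wt) and in 3 its deletion is labelled (BVE-Ctnnb1null). The line BVE at passage 20 gave both wt libraries, of which wt replicate 2 alone is marked as grown with the hormone TSH (thyrotropin). The null libraries bore 3 line names, BVECTN_4 at passage 8 without TSH (null replicate 1), BVECTN_4A at passage 11 (null replicate 2) and BVECTN_5 at passage 7 (null replicate 3), and TSH is not stated for the latter pair. The growth protocol differs from these labels, with TSH at 4 mU/mL in the medium and roughly 25 (wt) and 20 (null) passages. The age of the donor mice and the promoter behind the recombination are not given in the sources used here. Genotype thus cannot be told apart from line or passage, and the p-values measure the spread between these samples. The RNA-seq samples were described as 3 biological replicates, whereas the labels give 2 wt libraries that bear a single line name and differ in TSH.

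SOX proteins bind DNA through an HMG box and are grouped by the similarity of that box. Sox2 belongs to the SOXB genes, Sox4 and Sox11 to the SOXC genes, Sox9 to the SOXE genes and Sox17 to the SOXF genes. FOXA and GATA proteins can bind their sites in closed chromatin and open foregut genes for other factors, while ISL1 and TBX1 act in pharyngeal endoderm and mesoderm. The thyroid itself buds from the floor of the pharyngeal endoderm, where Nkx2-1, Pax8, Foxe1 and Hhex mark its primordium. β-catenin works in the nucleus with TCF and LEF proteins, whose DNA-binding domain is also an HMG box.

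Library totals were similar, with 30432737 and 30713079 estimated counts for wt replicates 1 and 2 and 29929677, 29360002 and 29415980 for null replicates 1, 2 and 3. A gene with 0 counts may still have up to 3 at such totals, which is between 0.0977 and 0.102 CPM (counts scaled to the library total) and covers counting error only. In the wt pair 14.3% and 15.0% of all counts fell on the top 10 genes, against 6.93%, 7.997% and 7.92% in null replicates 1, 2 and 3, and TMM normalization (trimmed mean of M values) rescales the libraries for such differences in makeup. Levels are given as FPKM, the fragments per kilobase of transcript, scaled to the depth of the library, which can be compared between genes.

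Ctnnb1 RNA, the check of the labels, was not lower in the null libraries on the FPKM scale. It measured 59.29 and 73.75 FPKM in wt replicates 1 and 2. The level was 124.58, 196.26 and 117.82 FPKM in the libraries labelled null 1, 2 and 3, above both wt values. In TMM-scaled CPM null replicate 3, at 343.8, was below wt replicate 2, at 356.4, and the other null libraries were above both wt libraries. The log2 fold change of Ctnnb1 was 0.55 (SE, standard error, 0.44, adjusted p = 0.517, edgeR's quasi-likelihood test). The files hold values per transcript and do not show whether single exons are missing. Every direction below is between libraries labelled BVE-Ctnnb1null and BVE-Ctnnb1wt, called null and wt libraries.

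The libraries were labelled thyroid epithelial cells, and their markers differed between lines. Of 13 thyroid follicular genes, 4 reached an FPKM of 1 in a library. Slc26a4, Iyd, Duox2 and Foxe1 were at or under an FPKM of 0.09 in every library, and Tg, the hormone precursor, was at most 0.86. Slc5a5, the iodide transporter, was at 6.48 in null replicate 1, 1.03 in wt replicate 1 and at most 0.36 in the other libraries. Null replicate 2 was at an FPKM of 0.00 for Epcam and Cdh1, the epithelial adhesion genes, which were at 152.05 and 135.74 in null replicate 1 and at 59.60 and 20.92 in null replicate 3. In the wt pair Epcam was at 5.04 and 4.61 and Cdh1 at 1.94 and 1.62. The epithelial keratins Krt8 and Krt18 were still present in null replicate 2, at 230.48 and 346.31. Krt8 was higher in the wt pair, at 634.39 and 1103.53, and Krt18 was at 320.53 and 457.06 there. Null replicate 3 had an FPKM of 84.66 for Dcn, 88.47 for Thy1 and 101.56 for Postn, genes of fibroblasts that were at or under 0.24 in the other libraries. Other genes of fibroblasts were not confined to this library. Col1a1 was at 161.02 and 118.44 in the wt pair, then 1.11, 104.06 and 570.48 in null replicates 1, 2 and 3. Lum was at 0.02 in null replicate 3. The null libraries are therefore described 1 by 1, and a difference between groups is set against the differences between null lines.

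**Figure D1:**
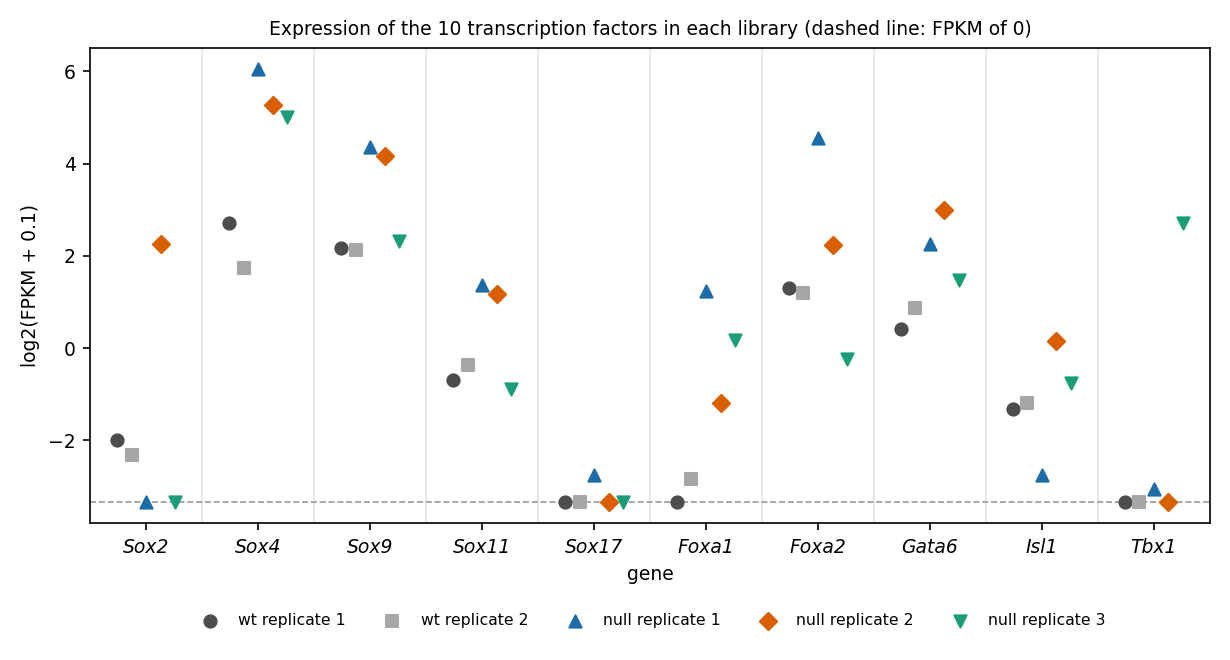
Level of each of the 10 factors, as log2(FPKM + 0.1), with 1 symbol per library and the dashed line at an FPKM of 0. Sox4, Sox9, Foxa1 and Gata6 lie higher in all 3 null libraries than in the wt pair (in TMM-scaled CPM only Sox4 and Foxa1), while Sox2 and Tbx1 each stand out in a single null library.

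Among the 10 factors, Sox4 showed the largest separation of the groups relative to its spread. Sox4, a SOXC factor of progenitor cells and many carcinomas, had an FPKM of 6.44 and 3.24 in wt replicates 1 and 2. It had 65.73, 38.73 and 32.33 in null replicates 1, 2 and 3, so the groups did not overlap. The means were 4.84 ± 2.26 (SD, n = 2) and 45.6 ± 17.7 (SD, n = 3), a ratio of 9.42. In counts scaled by TMM normalization, Sox4 had a CPM of 23.1 and 13.3 in the wt pair, then 181.7, 95.05 and 79.9 in null replicates 1, 2 and 3. The log2 fold change of Sox4 was 2.71 (SE 0.60, unadjusted p = 0.00308, adjusted p = 0.180, edgeR's quasi-likelihood test, Benjamini-Hochberg adjustment across 13240 genes). It did not pass the threshold of 0.05, while DESeq2 gave an adjusted p of 0.000984. Without wt replicate 2, which leaves 1 wt library, the log2 fold change was 2.36. The direction was the same under all 13 alternatives, with log2 fold changes between 2.23 and 3.25. The exact permutation test over the 10 splits of 5 libraries gave p = 0.1 (two-sided), the smallest it allows.

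Foxa1 was near absent from the wt libraries and present in every null library. Foxa1, a pioneer factor of foregut epithelia, had 0 and 4 counts in wt replicates 1 and 2 and 218, 32 and 98 counts in null replicates 1, 2 and 3. The FPKM was 0.00 and 0.04 in the wt libraries against 2.26, 0.34 and 1.03 in null replicates 1, 2 and 3. The highest wt library was thus at about the counting limit, and null replicate 2 was the lowest null library. Foxa1 had a log2 fold change of 5.25 (SE 1.72, unadjusted p = 0.0195, adjusted p = 0.212, edgeR's quasi-likelihood test). For so few wt counts the fitted size is not firm, and it ran from 1.02 on log2(FPKM + 1) to 9.81 without wt replicate 2. Ttc6, a gene that overlaps Foxa1, had at most 0.25 FPKM. DESeq2 gave Foxa1 an adjusted p of 0.00918, and the exact permutation test gave p = 0.1 (two-sided).

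The promoters of these genes are shown beside those of Sox2 and Foxa2, each of which was far above its other levels in a single null line. Each is the 250 bases before the start in RefSeq's annotation of GRCm38.p6 (for Foxa2 the start of the deposited transcript), and the Sox2 start used lies 410 bases from that of the deposited Sox2 transcript. The build that the authors used is not given in the sources used here. The windows are chr13:28953700-28953949, minus strand (Sox4), chr12:57546112-57546361, minus strand (Foxa1), chr3:34649745-34649994, plus strand (Sox2) and chr2:148046970-148047219, minus strand (Foxa2). Capitals mark a match to any of 5 short motifs, searched on both strands.
Sox4: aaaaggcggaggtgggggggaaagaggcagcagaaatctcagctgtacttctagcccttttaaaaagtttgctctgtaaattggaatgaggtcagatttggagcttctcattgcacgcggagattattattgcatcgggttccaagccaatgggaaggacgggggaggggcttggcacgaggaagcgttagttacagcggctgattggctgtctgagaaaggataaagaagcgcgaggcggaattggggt
Foxa1: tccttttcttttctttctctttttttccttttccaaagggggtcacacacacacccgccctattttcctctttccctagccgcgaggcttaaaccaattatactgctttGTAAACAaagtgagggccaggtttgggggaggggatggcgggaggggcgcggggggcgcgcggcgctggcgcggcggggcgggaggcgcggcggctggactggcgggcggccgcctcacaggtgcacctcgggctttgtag
Sox2: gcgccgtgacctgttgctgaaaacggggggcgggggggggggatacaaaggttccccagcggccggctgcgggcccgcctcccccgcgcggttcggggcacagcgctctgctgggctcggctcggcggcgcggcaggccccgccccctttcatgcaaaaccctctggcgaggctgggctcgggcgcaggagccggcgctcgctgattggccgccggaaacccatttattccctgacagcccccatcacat
Foxa2: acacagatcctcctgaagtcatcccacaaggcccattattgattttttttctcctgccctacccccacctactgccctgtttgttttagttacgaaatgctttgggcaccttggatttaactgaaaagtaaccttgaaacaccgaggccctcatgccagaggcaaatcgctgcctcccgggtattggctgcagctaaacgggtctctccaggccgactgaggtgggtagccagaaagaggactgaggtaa
The motifs were CTTTGAT for TCF and LEF factors, ACAATG for SOX, TGTTTAC for FOX, AGATAA for GATA factors and TATAAA for the TATA box. In these 4 windows the sole match was a FOX motif in the Foxa1 promoter, read on the opposite strand, which begins 141 bases before the start. RefSeq has 2 further starts of Foxa2, whose windows are not shown, and 1 of them holds a GATA and a TATA match. Of 32817 promoters of this length, 3.16% held the FOX motif, 3.21% the TCF and LEF motif, 10.7% the SOX motif, 9.99% the GATA motif and 12.4% the TATA motif. G and C made up 50.8% of the Sox4 window, 62.0% of the Foxa1 window, 72.0% of the Sox2 window and 50.8% of the Foxa2 window, with a median of 52.4% over all promoters. A match is a description of letters and not of binding, and no match says only that the letters are not in the window.

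Over the whole table, edgeR called 0 genes higher and 0 lower at an adjusted p under 0.05 (0.0% of 13240 in each direction), while 1646 and 804 genes had an unadjusted p under 0.05. DESeq2 called 1113 genes higher and 487 lower. Of the 10 factors, 8 passed the filter on low counts, and Sox17 and Tbx1 did not. At an unadjusted p under 0.05, 2 of the 8 were higher in the null libraries (Sox4 and Foxa1) and 0 were lower, against 12.4% and 6.07% of all genes tested. This balance depended on the scaling. With library totals in place of TMM, 4 of the 8 were higher (Sox4, Sox9, Foxa1 and Gata6) and 0 lower, against 22.3% and 2.08% of genes (2950 and 276). In limma on log2(FPKM + 0.1), which kept all 10, 3 were higher (Sox4, Foxa1 and Gata6) and 0 lower, against 19.1% and 2.79% (2268 and 332). DESeq2 called the same pair higher and 0 of the factors lower at an adjusted p under 0.05, against 8.48% and 3.71% of the genes it tested. The fitted log2 fold change was above 0 for all 8 tested factors, as for 59.3% of all genes tested, with a median of 1.37 beside 0.29 over all genes tested. The median over all genes moved with the scaling, to 0.87 without TMM and 0.61 in limma on log2(FPKM + 0.1), and relative to the main median Sox4 was at 2.41, Gata6 at 0.87, Sox9 at 0.86 and Isl1 at -0.23. In TMM-scaled CPM, all null libraries were above both wt libraries for 2 of the 10 factors (Sox4 and Foxa1), against 22.6% of all genes tested, and below both for 0 factors, against 17.3%. In FPKM the same held for 4 factors (Sox4, Sox9, Foxa1 and Gata6), against 35.9% of all genes, and 0 factors lay below both wt libraries in all null libraries, against 7.22%. With 2 and 4 of 10, the factors were near these backgrounds, so the number of factors that separate the groups is not a result about them.

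**Figure D2:**
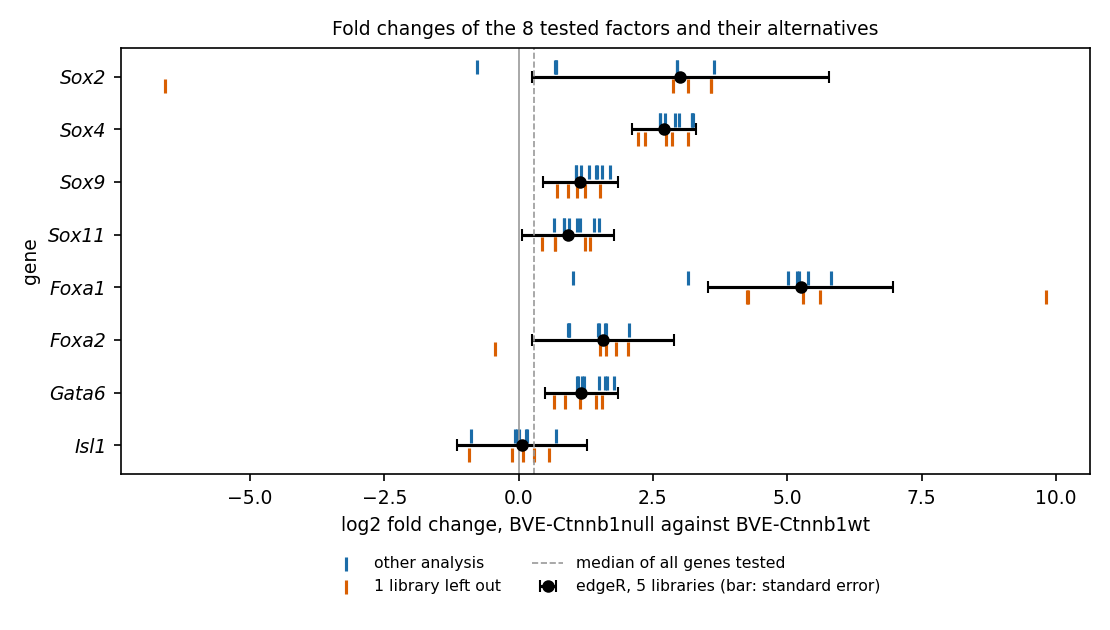
Log2 fold change of the 8 tested factors in the null against the wt libraries, with the standard error as a bar, analyses with other settings as blue marks and the 5 analyses with 1 library left out as orange marks. Sox4 stays between 2.23 and 3.25, whereas Sox2, Foxa2 and Isl1 have marks on both sides of 0.

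Sox9 and Sox11 were high in the same null libraries. Sox9, which directs cartilage and is active in many duct and foregut progenitors, had 4.42 and 4.30 FPKM in the wt pair. In null replicates 1 and 2 it reached 20.28 and 17.69, but in null replicate 3 it was 4.87, next to the wt level. Sox11, the other SOXC factor here, had 0.52 and 0.68 FPKM in the wt pair, then 2.49, 2.15 and 0.44 in null replicates 1, 2 and 3. For both genes null replicates 1 and 2 were high and null replicate 3 was not. In TMM-scaled CPM null replicate 3 lay below both wt libraries for Sox9, at 16.9 against 22.2 and 24.7, so the order of these libraries depends on the scaling. The log2 fold change was 1.15 for Sox9 (SE 0.70, adjusted p = 0.405, edgeR's quasi-likelihood test) and 0.92 for Sox11 (SE 0.85, adjusted p = 0.574, the same test). Neither difference passed the threshold. Without null replicate 1 the log2 fold changes were 0.71 for Sox9 and 0.43 for Sox11.

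Cartilage genes that SOX9 is known to drive were low. Of 9 such genes, 1 reached an FPKM of 1 in a library and 2 were tested. Of these 2, 0 had an unadjusted p under 0.05, where 12.4% of all genes tested were higher and 6.07% lower. The gene that reached 1 was Acan, the core protein of the cartilage proteoglycan, at 2.03 and 1.73 FPKM in the wt pair, then 1.51, 0.00 and 0.14 in null replicates 1, 2 and 3. Col2a1, the main cartilage collagen, was at most 0.31. The Sox9 level of null replicate 2 thus came with no listed Acan.

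Sox2 was confined to null replicate 2 among the null libraries. Sox2, which marks the dorsal foregut and keeps progenitors of many epithelia, had 342 counts there and 0 counts in null replicates 1 and 3. The wt libraries had 11 and 8 counts. The FPKM was 0.15 and 0.10 in wt replicates 1 and 2, 4.71 in null replicate 2 and 0.00 in the other null libraries. The level in null replicate 2 was 31.4 times that of the next library, wt replicate 1. The exact Poisson intervals (95%) of the 11 and 8 counts in the wt pair, 5.49 to 19.7 and 3.45 to 15.8, overlapped, and the latter also overlapped that of a count of 0, which reaches 3.69. The log2 fold change of 3.01 (SE 2.76, adjusted p = 0.571, edgeR's quasi-likelihood test) therefore rests on a single library, and without null replicate 2 it was -6.58. With 0 counts in both remaining null libraries and few in the wt pair, the size of that value is not a measure. DESeq2 gave no adjusted p for Sox2. Sox2ot, the noncoding gene in which Sox2 lies, had an FPKM of at most 0.08. Of 4 pluripotency markers only Nanog was listed, at an FPKM of 0.00 in null replicate 2.

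Sox17 was at 0 counts outside null replicate 1, where it had 5 counts, an FPKM of 0.05. The exact Poisson interval of these 5 counts, 1.62 to 11.7, overlapped that of a count of 0, which reaches 3.69. Sox17 marks definitive endoderm and also the arterial endothelium. Of 8 endothelial genes, none reached an FPKM of 1 in a library, and their FPKM summed to between 0.03 and 0.75 in each library. The most abundant of them was Kdr, at 0.62 in null replicate 3, while Pecam1 and Cdh5 were at or under 0.04 in each library.

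Foxa2 was highest in null replicate 1. Foxa2, the factor that sets up foregut endoderm, had 2.36 and 2.19 FPKM in the wt pair. Null replicate 1 had 23.37, null replicate 2 had 4.59, and null replicate 3, at 0.75, was below both wt libraries. The wt libraries lay between the null libraries, and the log2 fold change of 1.57 (SE 1.32, adjusted p = 0.537, edgeR's quasi-likelihood test) became -0.43 without null replicate 1. Foxa1 and Foxa2 shared their highest library, but Foxa1 was higher in null replicate 3 than in null replicate 2 and Foxa2 the reverse. Pax1, the coding gene next to Foxa2 on the chromosome, was also highest in null replicate 1, at an FPKM of 2.09 against at most 0.06 elsewhere. Foxa3, the third FOXA gene, was at most 0.57.

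Secreted products of FOXA and GATA target tissues were low in all libraries. Of 13 such genes, 2 reached an FPKM of 1 in a library and 4 were tested. Of these 4, 0 had an unadjusted p under 0.05, where 12.4% of all genes tested were higher and 6.07% lower. Afp, the fetal liver serum protein, was at 3.24 in null replicate 2, and Sftpb, a lung surfactant protein, was at 1.63 in null replicate 1. Sftpc, Scgb1a1, Scgb3a2, Tff2 and Agr2 were not listed in any library. Foxj1, the driver of motile cilia, had an FPKM of 24.67 in null replicate 1, the library with most Foxa2, and at most 0.27 in the others.

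Gata6 was higher in each null library on the FPKM scale. Gata6, a zinc finger factor of endoderm and heart, had 1.24 and 1.74 FPKM in the wt pair, then 4.68, 7.92 and 2.70 in null replicates 1, 2 and 3. The means were 1.49 ± 0.354 (SD, n = 2) and 5.10 ± 2.64 (SD, n = 3). In TMM-scaled CPM null replicate 3, at 7.19, was below wt replicate 2, at 7.71. The log2 fold change was 1.17 (SE 0.68, adjusted p = 0.386, edgeR's quasi-likelihood test), which did not pass the threshold. Without null replicate 2 it was 0.66. Of 7 other FOXA, GATA and ISL genes, 5 were tested, and at an unadjusted p under 0.05 Gata2 was higher and Gata4 lower, beside 12.4% and 6.07% of all genes tested. Gata4, a close relative, had the opposite order, with 5.84 and 4.39 FPKM in the wt pair, then 0.15, 0.02 and 1.33 in null replicates 1, 2 and 3. No null library reached the wt values for Gata4, and its log2 fold change was -3.97 (SE 1.42, unadjusted p = 0.0284, adjusted p = 0.230, edgeR's quasi-likelihood test). Gata6 was thus the more abundant of the pair in the null libraries and Gata4 in the wt libraries. Gata2, a factor of blood, endothelial and other cells, had an FPKM of 3.61 in null replicate 3 and at most 0.42 in the others. Gata3, which acts in the parathyroid and inner ear among others, was highest in null replicate 1, at 1.39.

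Isl1 stayed low. Isl1, a LIM homeodomain factor of pharyngeal progenitors and also of endocrine and neural cells, had 0.30 and 0.34 FPKM in the wt pair. It had 0.05, 1.02 and 0.49 in null replicates 1, 2 and 3, so the wt libraries were within the range of the null libraries. Isl1 had a log2 fold change of 0.06 (SE 1.21, adjusted p = 0.983, edgeR's quasi-likelihood test), and the sign changed under 5 of 12 alternatives. Of 7 genes of the calcitonin-producing C cells of the thyroid, which also use Isl1, 2 reached an FPKM of 1. Their FPKM summed to 3.14, 2.73, 5.26, 1.77 and 1.76 over the 5 libraries in the order wt to null. Calcb led this list at 3.78 in null replicate 1, where Isl1 was lowest. Calca, on the same list, was at 0.73 and 0.56 in the wt pair and lower, at 0.37, 0.29 and 0.43, in null replicates 1, 2 and 3. Syp, a synaptic vesicle gene, was at 2.07 and 1.57 in the wt pair and at most 0.12 in the null libraries. Isl2, the sister gene of Isl1, lay between 0.16 and 1.43 and was lowest in null replicate 1 as well.

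Tbx1 stood above the counting limit in null replicate 3 alone. Tbx1, the T-box factor of the pharyngeal pouches and arches, had 337 counts there, 1 count in null replicate 1 and 0 counts in the 3 other libraries. Its FPKM was 6.43 in null replicate 3 and 0.02 in null replicate 1. With the wt libraries at the limit of 3 counts per library, null replicate 3 was 70.9-fold higher in TMM-scaled CPM. At 3.69 counts, which the exact Poisson interval of a count of 0 reaches, this fold would be smaller. Gp1bb, the coding gene on 1 side of Tbx1, had an FPKM of 0.85 in null replicate 3 and at most 0.07 elsewhere, while Gnb1l on the other side was between 2.33 and 4.88 in all libraries. Null replicate 3 is also the library with the fibroblast genes, whose list summed to an FPKM of 1389.97 there against 284.74 and 249.94 in the wt libraries, 1.70 in null replicate 1 and 127.25 in null replicate 2. Col1a1 was the most abundant gene of this list of 8, Lum was at 0.02 in null replicate 3, and the part of such cells in the Tbx1 level was not tested. In bulk samples fewer cells of a type and less RNA per cell cannot be told apart.

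The order of the factors changed from line to line. Sox4 was the most abundant factor in wt replicate 1 and in the 3 null libraries, and Sox9, at 4.30 FPKM, stood above Sox4, at 3.24, in wt replicate 2. Sox9 came second in wt replicate 1 and in null replicate 2. In the wt pair the levels of Sox4 and Sox9 thus overlapped. In null replicate 1 Foxa2, at an FPKM of 23.37, stood just above Sox9, at 20.28. In null replicate 3 Tbx1, at 6.43, stood above Sox9, at 4.87. The 10 factors summed to 15.43 and 12.63 FPKM in the wt pair, then 118.93, 77.15 and 49.04 in the null libraries, and Sox4 was the largest part of the sum in 4 libraries. An FPKM of at least 1 was reached by 4 factors in each wt library and by 6, 7 and 5 factors in null replicates 1, 2 and 3. The share of all genes at this level was not counted, so these counts are not a result about the factors. More genes were listed in the null libraries, at 15782, 15142 and 15972 against 14565 and 14341. The median difference from the wt mean on log2(FPKM + 0.1) over all genes tested was 0.547, 0.616 and 0.718 in the null libraries. The summed FPKM of all genes tested was lower in each null library, at most 620192.2 against at least 740510.73.

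Set against the mean of the wt libraries on log2(FPKM + 0.1), a difference of at least 2 was found for 4 factors in null replicate 1 (Foxa1 at 4.32, Sox4 at 3.82, Foxa2 at 3.31 and Sox9 at 2.19). It was found for 3 factors in null replicate 2 (Sox2 at 4.43, Sox4 at 3.05 and Gata6 at 2.35, with Sox9 just under the limit at 2.00 after rounding) and for 3 in null replicate 3 (Tbx1 at 6.03, Foxa1 at 3.26 and Sox4 at 2.79). Of all genes tested, 15.6%, 16.4% and 17.6% were as far above the wt mean in null replicates 1, 2 and 3. No factor was below the wt mean by 2 or more, where 4.55%, 3.41% and 2.70% of genes were. These comparisons of single lines have no replicate check. Of the 10 factors Sox4 alone passed this difference in all 3 lines, as did 3.32% of all genes tested. Between the wt libraries, which differ in TSH on their labels, the differences of the 10 factors lay between -0.97 for Sox4 and 0.49 for Foxa1, and 0 factors passed a difference of 2, against 1.16% of genes. In the pair labelled without TSH in both groups, null replicate 1 exceeded wt replicate 1 by 3.33 for Sox4, 4.56 for Foxa1, 3.25 for Foxa2, 2.17 for Sox9, 2.06 for Sox11 and 1.83 for Gata6, and the difference was -1.42 for Isl1 and -1.32 for Sox2.

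The range between the null libraries on the same scale was 6.03 for Tbx1, 5.59 for Sox2 and 4.79 for Foxa2, where the median over all genes tested was 1.43. These ranges stood at the 97.6, 97.0 and 95.3 percentiles of all genes tested. Tbx1 is not itself among the genes tested. The filter on low counts also left out other genes high in a single library, such as Pdx1 and Nkx2-3, so its percentile is only a rough guide. Sox4 had a range of 1.02, at the 31.8 percentile. Sox4 thus varied less between the null lines than the median gene, and Sox2, Tbx1 and Foxa2 were among the least even.

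**Figure D3:**
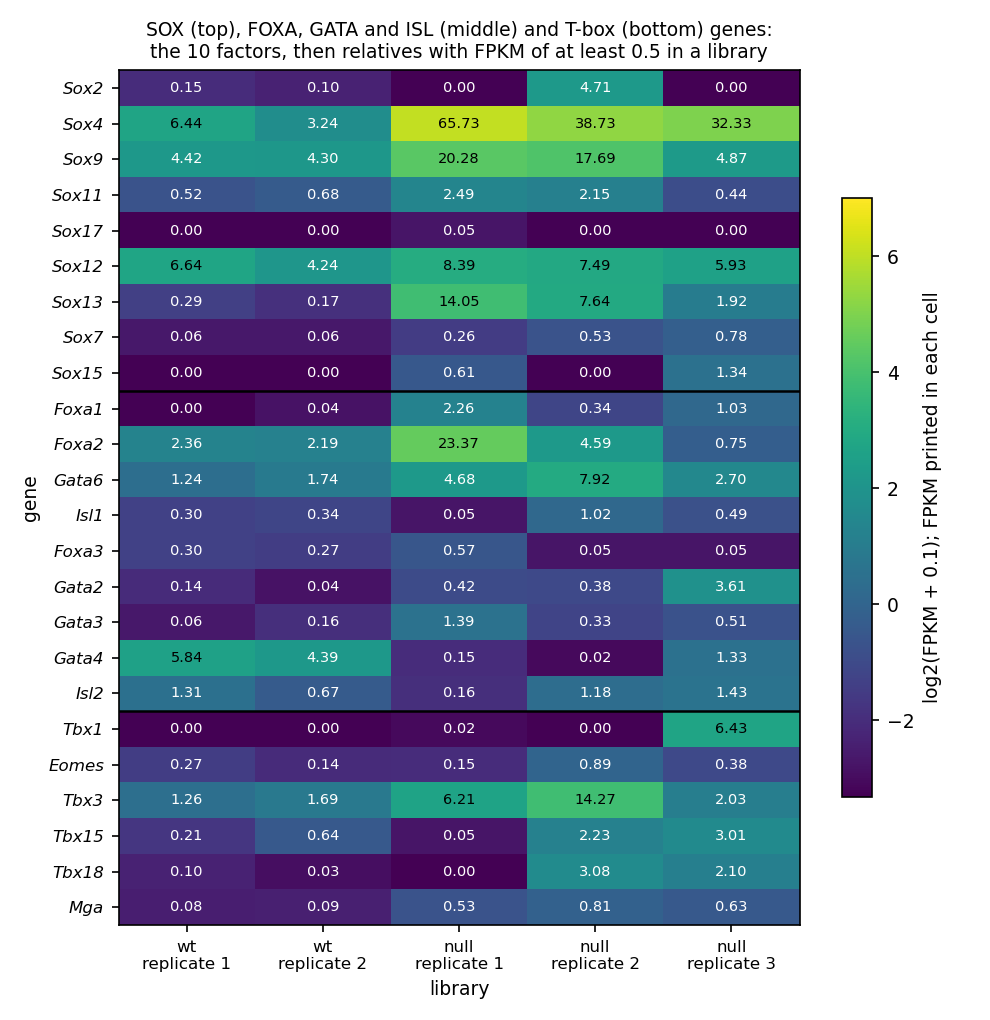
FPKM of the 10 factors and of their SOX, FOXA, GATA, ISL and T-box relatives that reach 0.5 in a library, with the colour on the log2(FPKM + 0.1) scale. The null libraries are bright for Sox4 and Sox13, the wt libraries for Gata4, and Tbx1 is bright in null replicate 3 alone.

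Of 14 other SOX genes, 10 were listed in a library, 3 reached an FPKM of 1 and 5 were tested. At an unadjusted p under 0.05, 3 of the 5 were higher in the null libraries (Sox5, Sox7 and Sox13) and 0 lower, where 12.4% and 6.07% of all genes tested were, and 0 passed an adjusted p of 0.05. Sox13, a SOXD factor, had 0.29 and 0.17 FPKM in the wt pair, then 14.05, 7.64 and 1.92 in null replicates 1, 2 and 3. The groups did not overlap for Sox13, and its log2 fold change was 4.56 (SE 1.06, adjusted p = 0.181, edgeR's quasi-likelihood test). All null libraries were above both wt libraries in FPKM for 35.9% of all genes tested. Sox12, the remaining SOXC gene, was even, between 4.24 and 8.39 in all libraries, with a log2 fold change of -0.14 (SE 0.47, the same test). The SOXC genes therefore differed in range, with Sox4 and Sox11 varying between libraries by 4.30 and 2.26 on log2(FPKM + 0.1). Sox15 had an FPKM of 0.61 and 1.34 in null replicates 1 and 3 and was at 0.00 in the other libraries. Sox10, the neural crest factor, was at most 0.01, and Sox1, Sox3, Sox14 and Sox30 were not listed.

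Of 16 T-box genes other than Tbx1, 3 reached an FPKM of 1 in a library and 6 were tested. In the tested genes the median log2 fold change was 2.07, beside 0.29 over all genes, and at an unadjusted p under 0.05 1 gene, Mga, was higher and 0 lower, beside 12.4% and 6.07% of all genes tested. Tbx3, a repressor in many organ buds, had 1.26 and 1.69 FPKM in the wt pair, then 6.21, 14.27 and 2.03 in null replicates 1, 2 and 3. Tbx15 and Tbx18, factors of mesenchyme, had 2.23 and 3.08 in null replicate 2 and 3.01 and 2.10 in null replicate 3. They were at 0.05 and 0.00 in null replicate 1, and Tbx1 shared with them only null replicate 3.

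**Figure D4:**
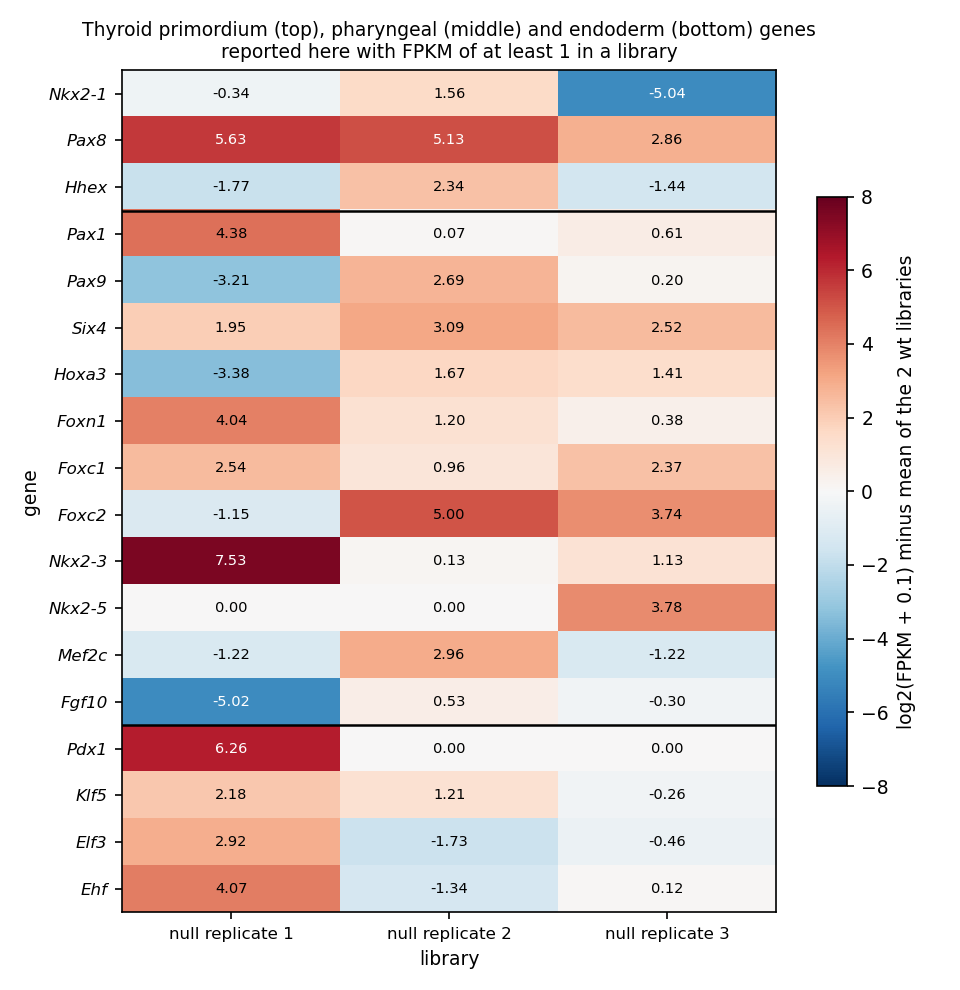
Difference of each null library from the mean of the wt libraries on log2(FPKM + 0.1), for the thyroid primordium, pharyngeal and endoderm genes reported here that reach 1 FPKM in some library. Pax8 is red in all 3 columns, while Nkx2-3 and Pdx1 are red in null replicate 1, Nkx2-5 in null replicate 3, and Nkx2-1 is blue in null replicate 3.

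Of the 4 thyroid primordium factors, Nkx2-1 and Hhex were highest in null replicate 2, Pax8 in null replicate 1 and Foxe1, at a very low level, in null replicate 3. Nkx2-1 had 9.21 and 15.02 FPKM in the wt pair, then 9.26, 34.83 and 0.26 in null replicates 1, 2 and 3, so it was low in the library with Tbx1 and highest in the library with Sox2. Pax8 had 0.40 and 0.17 in the wt pair, then 18.15, 12.78 and 2.56 in the null libraries. The groups did not overlap for Pax8, whose log2 fold change was 4.75 (SE 1.09, unadjusted p = 0.00368, adjusted p = 0.180, edgeR's quasi-likelihood test). In FPKM all null libraries were above both wt libraries for 35.9% of all genes tested. At an unadjusted p under 0.05, 1 of 3 tested primordium factors was higher (Pax8) and 0 lower, beside 12.4% and 6.07% of all genes. Hhex was highest in null replicate 2, at 20.24, and lay between 1.08 and 4.14 in the others. Foxe1 was at or under 0.09.

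Of 20 pharyngeal pouch and arch genes, 17 were listed, 12 reached an FPKM of 1 in a library and 11 were tested. At an unadjusted p under 0.05, 2 were higher in the null libraries (Six4 and Foxn1) and 0 lower, beside 12.4% and 6.07% of all genes tested, and the median log2 fold change was 1.47 beside 0.29 over all genes. Different members were high in different lines. Nkx2-3, a homeobox gene of pharyngeal and gut tissue, had an FPKM of 20.13 in null replicate 1 and at most 0.14 elsewhere. Pax9, a pouch factor, had 13.01 in null replicate 2, 0.12 in null replicate 1 and between 1.61 and 2.31 in the other libraries. Foxc2, a mesenchyme factor, had 10.61 and 4.35 in null replicates 2 and 3 and at most 0.43 elsewhere. Nkx2-5, a heart and pharyngeal factor named here after its values were seen, had 1.27 in null replicate 3 and 0.00 elsewhere. Fgf8, a ligand downstream of Tbx1 in the pharynx, had an FPKM of 0.06 in null replicate 3 and 0.00 in the others.

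Of 19 endoderm genes, 15 were listed, 5 reached an FPKM of 1 and 5 were tested, with a median log2 fold change of 2.54, beside 0.29 over all genes, and 0 genes past an adjusted p of 0.05 (edgeR's quasi-likelihood test). Klf5, a factor of epithelial progenitors, was highest in null replicate 1, at 29.02. Pdx1, the pancreas and duodenum factor, had an FPKM of 7.56 in null replicate 1 and 0.00 in the other 4 libraries. Elf3, an epithelial ETS factor, had 65.12 in null replicate 1 against 8.0 and 9.06 in the wt pair, and was at 2.49 and 6.17 in null replicates 2 and 3. Mixl1, Cer1 and Otx2, genes of early endoderm and the head organizer, were not listed. Null replicate 1, the library with most Foxa2, thus also held most Pdx1, Elf3 and Nkx2-3.

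Of 14 known partners and cofactors of these factors, 9 were tested, 2 were higher at an unadjusted p under 0.05 (Pou3f1 and Pou2f1) and 0 lower, beside 12.4% and 6.07% of all genes tested. Pou3f2, a POU factor that works with SOX2 in neural cells, had an FPKM of 1.58 in null replicate 2, the library with Sox2, and at most 0.03 in the others. Zfpm1, a cofactor of GATA proteins, had 6.21 and 4.70 FPKM in the wt pair, then 41.44, 8.51 and 5.18 in null replicates 1, 2 and 3. Ldb1, the scaffold that LIM factors such as ISL1 bind, was between 26.44 and 118.68 in all libraries.

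**Figure D5:**
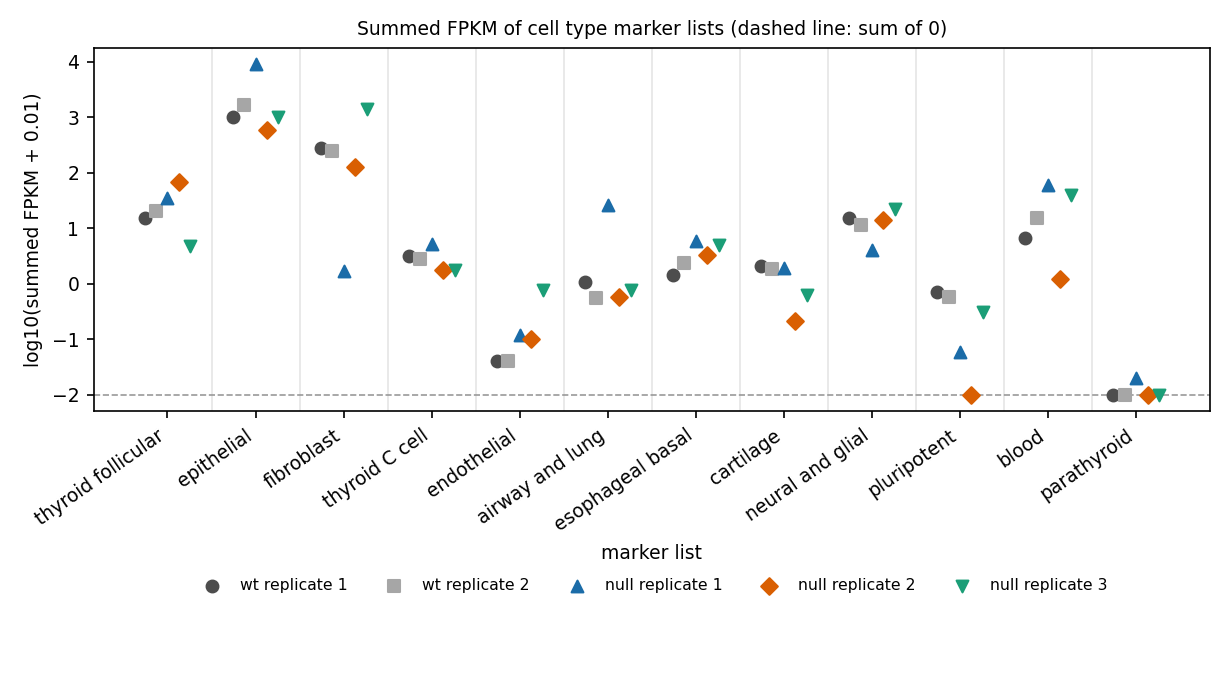
Summed FPKM of each cell type marker list in each library, as log10(sum + 0.01), with the dashed line at a sum of 0. The fibroblast list is lowest in null replicate 1 and highest in null replicate 3, and the endothelial and parathyroid lists are near 0 in all libraries.

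Marker lists of other cell types differed between the lines, and some were highest where a factor was highest while others were not. The epithelial list of 9 genes, led by Krt18, summed to 1030.49 and 1662.36 FPKM in the wt pair, then 9032.74, 594.93 and 1004.63 in null replicates 1, 2 and 3. It was highest in null replicate 1, where Sox4, Sox9, Sox11, Foxa1 and Foxa2 were highest. Null replicate 2, with the lowest sum, had nearly as much Sox9 (17.69 against 20.28) and Sox11 (2.15 against 2.49) as null replicate 1. It also had more Sox4 (38.73) than null replicate 3 (32.33). The airway and lung list of 6 genes summed to 26.37 in null replicate 1 and to between 0.55 and 1.05 in the others, and Foxj1 made up most of it. The esophageal basal list of 5 genes, markers of an epithelium that uses Sox2, summed to 3.24 in null replicate 2, between the 1.42 of wt replicate 1 and the 5.97 of null replicate 1. Krt13, a keratin of this epithelium, was highest in null replicate 2, at 2.64 against at most 0.59 elsewhere, while Trp63, a basal cell factor, was at 4.42 in null replicate 3 and 0.18 in null replicate 2. The neural and glial list of 6 genes, led by Tubb3, summed to 14.18 in null replicate 2 against 15.07 and 11.66 in the wt libraries. Of the blood list Cd68 and Lyz2 were listed, up to 59.81 and 1.39 FPKM, and Ptprc and Cd3e were not. The cartilage list of 6 genes summed to between 0.20 and 2.10, and of 3 parathyroid genes only Casr was listed, at 0.01 in null replicate 1. No gene of these lists passed an adjusted p of 0.05 in edgeR's test. The part of other cell types in the levels of the factors was not tested.

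Genes with the most similar pattern were sought among 12217 candidates at or above 1 FPKM in some library, by the root mean square difference of centred log2(FPKM + 0.1) over the 5 libraries, and 3 were taken for each of the 9 factors that reach 1 FPKM. The nearest to Sox4 were Trim44 (difference 0.181), Hivep1 (0.185) and Castor2 (0.199), of which Trim44 was at 1.28 and 0.51 FPKM in the wt and 11.93, 5.58 and 5.09 FPKM in the null libraries. Sox9 was nearest to Zfp764 (0.099), Cd24a (0.133) and Fgfbp3 (0.135), and Sox11 to Dock9 (0.131), Tmem37 (0.146) and H2ax (0.151). These genes share high levels in null replicates 1 and 2. Foxa1 was nearest to Rxra (0.115), Tesk1 (0.244) and Foxo1 (0.252), and Foxa2 to Blnk (0.323), Noxa1 (0.35) and Erfe (0.375). For Gata6 the nearest were Pcnt (0.124), Ttc30b (0.125) and Hsph1 (0.134), and for Isl1 Baalc (0.150), Tbc1d4 (0.158) and Ppp1r3d (0.178). For the factors high in a single line the distance differed. Sox2 had the most distant first match of the 9 factors and was nearest to Hoxc9 (0.343), Edil3 (0.404) and Gdf6 (0.419), and Hoxc9 was at 3.53 FPKM in null replicate 2 and at most 0.08 elsewhere. Tbx1 was nearest to Klf15 (0.045), Sfrp2 (0.096) and Pamr1 (0.195), of which Klf15 was at 6.58 FPKM in null replicate 3 and at most 0.03 elsewhere. With 5 libraries many genes share a pattern, and the likeness is a description.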

How the data were processed

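RNA-seq libraries were made with a TruSeq kit and grouped by their labels (2 BVE-Ctnnb1wt, 3 BVE-Ctnnb1null). For each RefSeq transcript the authors deposited an estimated count and an FPKM value, per library. The aligner, the counting program, the build and the use of strand are not given in the sources used here, so reads of overlapping genes cannot be told apart.

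Transcript values were added up to 1 estimated count (rounded) and 1 FPKM value per NCBI gene. Symbols came from RefSeq's gene list (GRCm38.p6) for 17866 of 17923 genes. The groups were compared over all libraries with edgeR 4.0.16 under R 4.3.3, using TMM, filterByExpr and the quasi-likelihood test. The threshold was 0.05 after Benjamini-Hochberg adjustment, and the procedure was tested on simulated data. Alternatives were DESeq2 1.42.0, library totals in place of TMM, no filter, a filter of 10 counts per library, limma 3.58.1 on log2 of FPKM plus 0.1, 0.01 or 1, leaving out each library, and the replicate number as a block. Exact permutation tests were run in Python 3.11.15. The factors and the gene lists were chosen with earlier results of these data known. From each list, up to 3 genes with the highest FPKM and up to 3 with the largest spread between libraries are named. Defining markers at 0 and genes with an unadjusted p under 0.05 are named beside them, and Epcam, Cdh1, Dcn, Thy1 and Nkx2-5 were chosen after their values were seen. RefSeq's promoter table held 7 of the 10 factors. Some list genes are counted but not reported here by name.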

Additional observations from a re-analysis of the deposited data

How the results depend on the processing

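The log2 fold changes of Sox4, Sox9, Sox11, Foxa1, Gata6 and Ctnnb1 kept their direction under every alternative run, but their size moved. With 1 library left out, Sox9 ran from 0.71 to 1.51 and Sox11 from 0.43 to 1.32. Gata6 ran from 0.66 to 1.56 and Ctnnb1 from 0.23 to 0.82. With DESeq2, Sox4 (2.63) and Foxa1 (5.22) passed an adjusted p of 0.05, as did 1113 genes higher and 487 lower, against 0 and 0 with edgeR. The other settings called few genes. Without a filter 0 genes were called higher and 4 lower, with at least 10 counts in every library 0 and 1, and with limma on log2 of FPKM plus 0.1, 0.01 and 1 they were 1 and 5, 1 and 3, and 1 and 7. Leaving out 1 null library at a time gave 0 calls in either direction, with 1386 to 2029 genes higher at an unadjusted p under 0.05. Leaving out a wt library leaves 1, so that the null libraries alone give the spread. Sox2 reversed in limma on log2(FPKM + 0.01) (-0.77), and its values with 1 library left out ran from -6.58 (without null replicate 2) to 3.59. The former is a fitted value with 0 counts in the remaining null libraries. Foxa2 ran from -0.43 (without null replicate 1) to 2.03. Isl1 reversed with DESeq2 (-0.03) and in limma on log2(FPKM + 0.01) (-0.07), and with 1 library left out it ran from -0.93 (without null replicate 2) to 0.56, with -0.13 without wt replicate 1. The cause was not tested, beyond the libraries named. Sox2, Foxa1 and Isl1 have no value with at least 10 counts in every library, since a library was below that. With the replicate number as a block, 0 genes were called in either direction, Isl1 became -0.89, and Sox4 was at 2.91, Foxa1 at 5.02 and Sox2 at 0.70. Null replicate 3 has no wt library of the same number, so this fit takes the group difference from replicates 1 and 2 alone. Replicate 1 of both groups is labelled without TSH, and nothing else ties samples of the same number. Their deviations from the group means had r = -0.11 across genes in both pairs, a check that says little with 2 wt libraries. With 2 wt libraries, both of 1 line, the spread of the wt group is poorly known, and levels near 3 counts cannot be told from 0.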
